A study of Mus musculus with 12 samples.

Results

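Dendritic cells (DC) sorted from inflamed mouse lung as 4 populations were set against each other across lineage: CD103+ conventional DC (CD103+ cDC) together with CD14hi monocyte-derived DC (CD14hi moDC), against CD14lo conventional DC (CD14lo cDC) together with Ly6Chi monocyte-derived DC (Ly6Chi moDC). Each side thus held 1 conventional and 1 monocyte-derived population, taken from the sample titles, with 6 arrays a side and all 12 arrays of the series in use. The genes described are those whose 6 arrays on one side all lay beyond the 6 arrays of the other, called separated here. There were 407 separated genes among 10929 genes tested (3.72%), 173 higher and 234 lower in CD103+ cDC and CD14hi moDC.

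All 4 populations came from male C57BL/6 mice (strain C57BL/6J by the labels) aged 8 to 12 weeks that had received 100 ng of lipopolysaccharide, a bacterial cell wall component, and 100 ug of ovalbumin, a foreign protein, in 50 ul of PBS into the airway 16 h before the lungs were taken. The lineage names, conventional or monocyte-derived, are those of the labels, and the 3 populations other than CD103+ cDC were CD11bhi. Each array held amplified RNA of cells sorted to over 93% purity, from 20 mice for each biological replicate. Untreated mice are not among the samples, so every comparison is between populations of the same challenged lungs.

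DC take up material in tissues, carry it to lymph nodes and present it to T cells. Conventional DC descend from a precursor committed to that fate, whereas monocyte-derived DC arise from blood monocytes that enter tissue, above all in inflammation. Among lung DC, the CD103+ cDC are known for taking up dying cells and presenting their antigens to CD8 T cells. Cd36, a scavenger receptor for oxidised lipids and dying cells, and Cadm1, an adhesion molecule of the immunoglobulin superfamily that is widely used to mark this cDC type, were the leading markers of the crossing pattern.

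Values are MAS5 signals in arbitrary units, scaled by the authors to the same trimmed mean on every array. A log2 difference is the mean of CD103+ cDC and CD14hi moDC minus the mean of CD14lo cDC and Ly6Chi moDC, after a pseudocount of 50.0003 units was added, so the change of dim genes is understated. Errors of differences are standard errors from limma, a linear model that shares information on the variance across genes, and called genes are those with an adjusted p (Benjamini-Hochberg over all genes tested) under 0.05. No probe set's level is set against that of another. The cDC step is CD103+ cDC minus CD14lo cDC, and the moDC step is CD14hi moDC minus Ly6Chi moDC; the steps share no array. In sorted bulk samples a smaller share of positive cells and less RNA per cell cannot be told apart.

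The arrays agreed closely within a population, with correlations across genes of 0.973 to 0.983. The bioB hybridization control, a spiked-in RNA, had signals of 4001 to 5990 in CD103+ cDC and 2620 to 6105 in CD14hi moDC, against 1925 to 2661 in CD14lo cDC and 2121 to 3177 in Ly6Chi moDC. The control was therefore brighter on the first side apart from an overlap of CD14hi moDC with the others. The Gapdh control, whose ratio of 3' to 5' signal measures RNA quality, gave 1.68 to 3.27 in CD103+ cDC and 1.52 to 1.80 in CD14hi moDC, against 1.55 to 2.29 in CD14lo cDC and 1.48 to 1.91 in Ly6Chi moDC. The sources used here give neither scan dates nor hybridization batches.

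The sort markers that could be checked followed the labels. Itgae, which encodes CD103, had a mean signal of 15178 ± 2597 in CD103+ cDC and 140.1 ± 19.5 in CD14hi moDC, against 855 ± 345 in CD14lo cDC and 86.5 ± 49.2 in Ly6Chi moDC (SD, n = 3 each). Itgam, which encodes CD11b, was low in CD103+ cDC, at 50.7 ± 20.5, and reached 1481 ± 11.7 in CD14hi moDC, 1115 ± 222 in CD14lo cDC and 2188 ± 177 in Ly6Chi moDC. Cd14 was high in both moDC populations, at 11669 ± 2480 in CD14hi moDC and 10836 ± 1701 in Ly6Chi moDC, while CD103+ cDC had 968 ± 425 and CD14lo cDC 1537 ± 245. None of these 3 genes was separated, and Cd14 was not called between CD14hi moDC and Ly6Chi moDC (log2 difference 0.10, limma adjusted p = 0.83). In the crossing comparison Itgae was called higher (log2 difference 2.35 ± 0.20) and Itgam lower (-2.04 ± 0.13). The moDC step was called for Itgam (-0.55, limma adjusted p = 0.043) and not for Itgae (0.55, adjusted p = 0.22). No probe set was assigned to Ly6c1 or Ly6c2 alone, so the Ly6C gate was not checked.

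Across all genes tested, the crossing comparison called 1859 genes higher (17.0%) and 1740 lower (15.9%) in CD103+ cDC and CD14hi moDC, 32.9% together. At least 2-fold differences were called for 461 (4.22%) and 288 (2.64%). With each array centred on its median, which shifted the median difference of all genes to -0.12 on the log2 scale, 34.7% of the called genes were higher, against 51.7% as reported. Such a comparison of means can be called where a single population differs. Separation asks for every array of a side, though a gene carried mainly by 1 population can still meet it, such as Plpp1 and Aldh1a2 below. By that rule 173 genes were separated higher, 1.58% of those tested, and 234 lower, 2.14%. Median centring gave 94 higher and 413 lower, and 91 and 195 genes were separated under the authors' scaling, quantile normalization and median centring alike. The median log2 difference was 1.02 over the higher and -0.72 over the lower separated genes, against -0.01 over all genes tested. Leaving out an array loosens separation by construction, and the higher count reached 277 without CD14hi moDC replicate 1, 274 without CD14lo cDC replicate 1 and 260 without CD14hi moDC replicate 3. When the bioB signal entered the model as a covariate, the crossing comparison called 959 genes higher and 684 lower, and the part of that control in the results was not tested.

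Separation and these differences come from the same arrays, so a gene's adjusted p is a description of the pattern that chose it. Of the separated genes 400 were called in the crossing comparison. At least 2-fold differences were seen in 89 higher and 78 lower genes, and at least 4-fold in 20 and 18. Another 115 differed by less than 1.5-fold, among them bright genes with little spread. In 21 of the higher genes the signal lay below the array median on all 6 arrays of CD14lo cDC and Ly6Chi moDC, and in 15 of the lower genes it did so on all 6 arrays of CD103+ cDC and CD14hi moDC. At the edge of the rule, Prr15 was just inside, with a lowest signal of 1071 on CD103+ cDC and CD14hi moDC arrays and a highest of 1069 on the others. Nfkbia was inside by a still smaller margin, 13524.2 against 13524.0. Cxcl16 was just outside, at 9656 against 9664, as was Hnrnpf, at 13511 against 13525. On the lower side Phf5a was just inside, with a highest signal of 2012 on CD103+ cDC and CD14hi moDC arrays and a lowest of 2013 on the others, as was Cux1, at 1513.93 against 1513.99. Tln1 was just outside at 7502.6 against 7501.8, and Ybx3 at 7052 against 7039.

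Cadm1 had the widest gap between the sides of any gene tested. Its signals were 2967, 4595 and 3870 in CD103+ cDC and 3647, 2641 and 2317 in CD14hi moDC, against 313, 217 and 255 in CD14lo cDC and 56.5, 25.9 and 65.3 in Ly6Chi moDC. The first 2 populations overlapped each other, and every one of their arrays was above every other array, with CD14lo cDC in turn above Ly6Chi moDC. The log2 difference was 4.25 ± 0.15 (limma adjusted p = 3.6e-12), or 18.99-fold. All 3 other probe sets of Cadm1 were separated in the same direction, with log2 differences of 3.78, 3.96 and 3.91. Cadm1 thus set CD14hi moDC apart from Ly6Chi moDC by 29.3-fold, and CD103+ cDC from CD14lo cDC by 12.3-fold. In the CD103+ cDC list, to which Cadm1 belongs, all 16 tested genes were higher in the crossing comparison (17.0% of all genes tested were). In the cDC step 15 were higher (13.4% of all genes were) and in the moDC step 4 (11.4% were). The median log2 differences of the list were 2.37 in the cDC step and 0.16 in the moDC step. Xcr1, a chemokine receptor of this cDC type, had a mean signal of 2656 ± 744 in CD103+ cDC and 33.2 ± 6.6 in CD14hi moDC, against 94.8 ± 41.2 in CD14lo cDC and 16.9 ± 9.1 in Ly6Chi moDC. Within this list Cadm1 and Cd207 were separated higher, where 1.58% of all genes tested were.

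Among receptors for uptake, Cd36 showed the most even pattern. Its signals were 6996, 7351 and 8284 in CD103+ cDC and 7164, 7952 and 7107 in CD14hi moDC, against 972, 1118 and 680 in CD14lo cDC and 879, 822 and 1270 in Ly6Chi moDC. Both populations within each side overlapped, and no array fell between 1270 and 6996. The difference was 7.60-fold in the crossing comparison, 7.93-fold in the cDC step and 7.28-fold in the moDC step (log2 difference 2.93 ± 0.13, limma adjusted p = 2.1e-11), and the difference between the steps was 0.12 ± 0.25 (adjusted p = 0.81). Both other probe sets of Cd36 were separated as well. Cd207, which encodes langerin, a C-type lectin of Langerhans cells and of CD103+ lung DC, had signals of 694, 639 and 1035 in CD103+ cDC and 197, 94.3 and 71.2 in CD14hi moDC. It had 35.9, 13.8 and 23.8 in CD14lo cDC and 6.14, 3.61 and 15.3 in Ly6Chi moDC. CD103+ cDC stood well above the rest, and CD14hi moDC stood above both populations of the other side at a low level. Scarb1, a receptor for high-density lipoprotein, went the other way, with mean signals of 593 ± 68 in CD103+ cDC and 512 ± 72 in CD14hi moDC, against 1122 ± 291 in CD14lo cDC and 1470 ± 443 in Ly6Chi moDC (log2 difference -1.13 ± 0.15, limma adjusted p = 9.5e-06). In the uptake list as a whole 6 of 25 tested members were higher and 10 lower, against 17.0% and 15.9% of all genes tested, with a median of -0.16. Cd36 and Cd207 were its only separated higher members (1.58% of all genes tested were separated higher).

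Dnase1l3, a secreted nuclease that digests DNA released by dying cells, had signals of 4401, 5510 and 4563 in CD103+ cDC and 3322, 2468 and 1845 in CD14hi moDC, against 1313, 763 and 1004 in CD14lo cDC and 370, 370 and 365 in Ly6Chi moDC. The 4 populations followed each other in that order without overlap, and the difference was 5.27-fold (log2 difference 2.40 ± 0.14, limma adjusted p = 6.7e-10). Fabp5, an intracellular fatty acid carrier, was the sole separated member among 17 tested genes of lipid handling, with a log2 difference of 0.42 ± 0.08 (adjusted p = 0.00041, and 0.15 with quantile normalization), and was not separated with either other scaling. Of those 17 genes 4 were higher and 10 lower, where 17.0% and 15.9% of all genes tested were. Over all genes tested 1.58% were separated higher and 2.14% lower. Of 20 tested genes of sterol and fatty acid synthesis 10 were higher and 2 lower, and the sole separated one was lower: Scd2, a fatty acid desaturase, with 733 ± 358 in CD103+ cDC and 729 ± 123 in CD14hi moDC, against 1534 ± 123 in CD14lo cDC and 1553 ± 241 in Ly6Chi moDC.

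**Figure D1:**
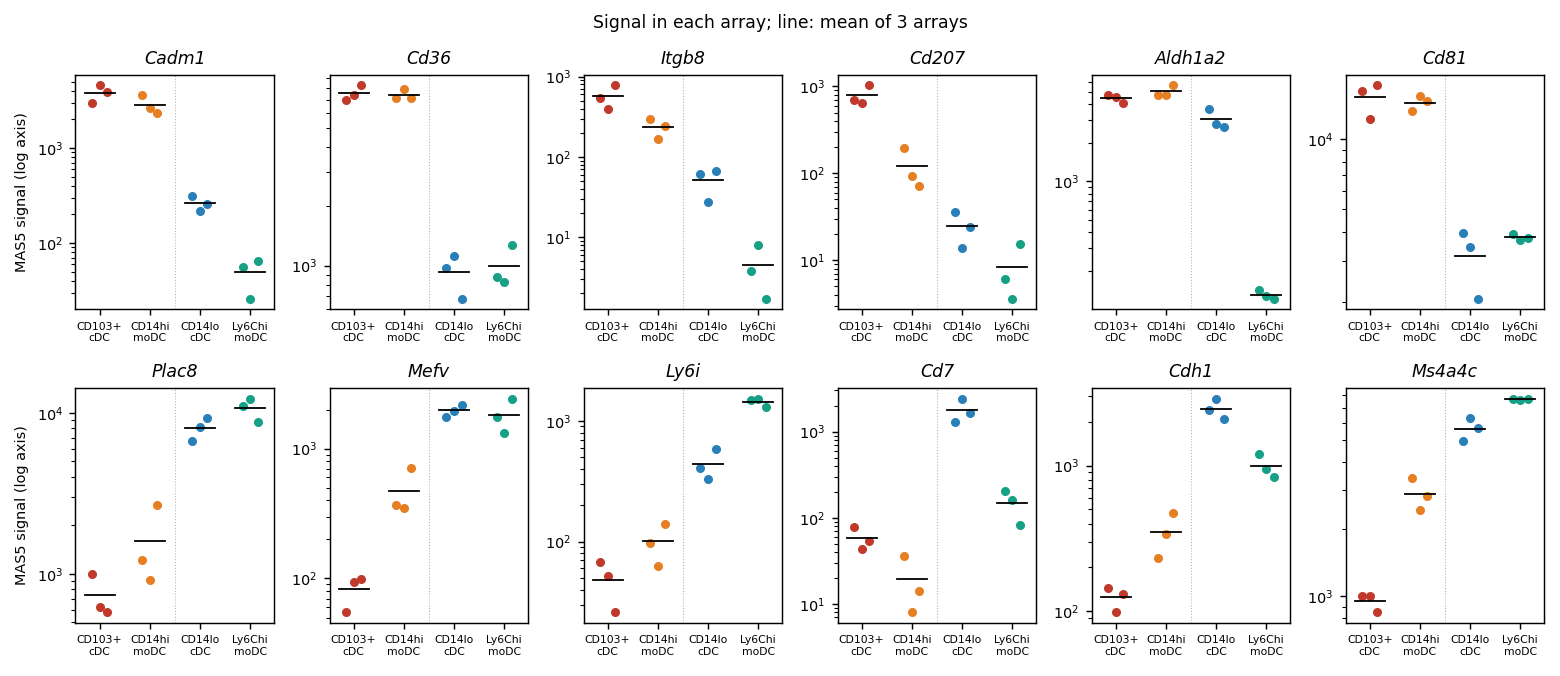
MAS5 signal on a log axis in each of the 12 arrays for 6 separated higher genes (top) and 6 separated lower genes (bottom); points are arrays, horizontal lines are means of 3 arrays, and the dotted line divides CD103+ cDC and CD14hi moDC from CD14lo cDC and Ly6Chi moDC. Cd36 is nearly level within each side, Aldh1a2 is much lower in Ly6Chi moDC alone, and Cd7 is much higher in CD14lo cDC alone.

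Adhesion genes crossed in both directions. Cd81, a tetraspanin that organises membrane proteins, had signals of 16146, 12222 and 17066 in CD103+ cDC and 13253, 15278 and 14598 in CD14hi moDC, against 3973, 3432 and 2069 in CD14lo cDC and 3921, 3695 and 3782 in Ly6Chi moDC. As for Cd36, the populations within a side overlapped, and the sides differed by 4.26-fold (log2 difference 2.09 ± 0.13, limma adjusted p = 9.8e-10). Cdh1, which encodes the epithelial cell adhesion protein E-cadherin, also found on some DC, had signals of 145, 98.8 and 132 in CD103+ cDC and 234, 341 and 472 in CD14hi moDC, against 2422, 2894 and 2094 in CD14lo cDC and 1203, 952 and 837 in Ly6Chi moDC. Each population stood apart, with CD14lo cDC highest, and Cdh1 was 14.4-fold lower in the cDC step and 2.68-fold lower in the moDC step. Ctnnb1, which encodes the cadherin-binding protein beta-catenin, was separated by a small margin in the opposite direction (log2 difference 0.22 ± 0.08, adjusted p = 0.031, and not called with either other scaling). Of 26 adhesion and junction genes tested, 13 were higher and 4 lower (17.0% and 15.9% of all genes were), with a median of 0.23.

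Of 17 integrin genes tested 6 were higher and 6 lower (17.0% and 15.9% of all genes were), and 2 were separated higher (1.58% of all genes were). Itgb8 encodes the beta subunit of an integrin that releases active TGF-beta from its latent form. It had signals of 547, 394 and 781 in CD103+ cDC and 299, 168 and 242 in CD14hi moDC, against 61.6, 27.7 and 66.9 in CD14lo cDC and 3.75, 8.05 and 1.72 in Ly6Chi moDC. The populations did not overlap, Ly6Chi moDC were close to 0, and the difference was 5.57-fold (log2 difference 2.48 ± 0.18, limma adjusted p = 7.2e-09). Itga8, an alpha subunit that binds matrix proteins, was 2.82-fold higher, with mean signals of 426 ± 154 in CD103+ cDC and 279 ± 24 in CD14hi moDC, against 64.4 ± 15.02 in CD14lo cDC and 119 ± 38 in Ly6Chi moDC. Its other probe set was not separated.

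Aldh1a2, the enzyme that makes retinoic acid from retinal in DC, was far lower in Ly6Chi moDC than in the other populations. Signals were 4742, 4589 and 4095 in CD103+ cDC and 4744, 4740 and 5642 in CD14hi moDC, against 3708, 2829 and 2673 in CD14lo cDC and 142, 127 and 122 in Ly6Chi moDC. The other 3 populations were thus within a narrow range, and Ly6Chi moDC were far below. The moDC step was 28.2-fold and the cDC step 1.46-fold, and their difference was called (log2 difference of the steps -4.27 ± 0.21, limma adjusted p = 2.2e-10). Smad7, an inhibitor of TGF-beta signalling, was lower, with a log2 difference of -0.82 ± 0.15 (adjusted p = 0.00039, and 0.27 with the bioB covariate). Among 19 tested genes of the retinoic acid and TGF-beta list, 5 were higher and 7 lower (17.0% and 15.9% of all genes were).

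The remaining genes with the largest higher differences have more varied roles. P3h2, an enzyme that hydroxylates proline in collagens, had signals of 1108, 1117 and 1076 in CD103+ cDC and 686, 561 and 317 in CD14hi moDC, against 70.7, 72.1 and 64.4 in CD14lo cDC and 44.4, 15.6 and 40.4 in Ly6Chi moDC. The 2 sides were separated by a wide margin, with CD103+ cDC uniformly above CD14hi moDC, and the difference was 8.02-fold. Lrrc3, a gene for a leucine-rich repeat protein, was 6.58-fold higher, with mean signals of 801 ± 277 in CD103+ cDC and 339 ± 147 in CD14hi moDC, against 72.7 ± 53.4 in CD14lo cDC and 10.9 ± 3.6 in Ly6Chi moDC. Zmynd15, known in mouse as a repressor of transcription in developing sperm, had means of 9187 ± 353 in CD103+ cDC and 3240 ± 545 in CD14hi moDC, against 1502 ± 352 in CD14lo cDC and 668 ± 81 in Ly6Chi moDC. Sult1a1, a sulfotransferase of phenols, and Zdhhc14, which attaches palmitate to proteins, were 5.03-fold and 4.78-fold higher. All but 1 of the 5 other probe sets of Zdhhc14 were separated too. Plpp1, a lipid phosphate phosphatase, met the rule mainly through CD103+ cDC: its mean was 1998 ± 87 in CD103+ cDC and 187.4 ± 46.2 in CD14hi moDC, against 122 ± 18 in CD14lo cDC and 67.3 ± 55.2 in Ly6Chi moDC. It was not separated with quantile normalization or median centring.

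Most genes of DC maturation and costimulation were higher in the crossing comparison, 23 of 25 tested, against 17.0% of all genes. In each step 20 were higher, against 13.4% of all genes in the cDC step and 11.4% in the moDC step, and 17 were higher in both, against 4.78%. The median log2 difference of the list was 1.16, against -0.01 over all genes. Fscn1, an actin-bundling protein of mature DC, had signals of 18683, 20353 and 22896 in CD103+ cDC and 13275, 13121 and 14052 in CD14hi moDC, against 12432, 12468 and 12519 in CD14lo cDC and 1206, 412 and 1829 in Ly6Chi moDC. CD14hi moDC and CD14lo cDC were close neighbours, and Ly6Chi moDC lay far below. Its moDC step was 13.1-fold, while its cDC step of 1.65-fold was not called (adjusted p = 0.088). Fscn1 was not separated with either other scaling, and none of its 3 other probe sets was separated, although all 3 were higher. Ccr7, the chemokine receptor that guides DC to lymph nodes, had a like order but was not separated, with means of 27133 ± 4077 in CD103+ cDC and 14561 ± 3286 in CD14hi moDC, against 14473 ± 1158 in CD14lo cDC and 936 ± 428 in Ly6Chi moDC. CD14hi moDC and CD14lo cDC overlapped for Ccr7. Marcks, a membrane-bound regulator of actin, was separated with a log2 difference of 0.62 ± 0.08 (limma adjusted p = 7e-06), but not with either other scaling.

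Of 24 tested chemokines 10 were higher and 7 lower (17.0% and 15.9% of all genes were). The 1 separated gene among them, where 1.58% of all genes were separated higher, was Ccl5, a chemokine that attracts T cells and monocytes. Its signals were 15359, 13139 and 16482 in CD103+ cDC and 14589, 15866 and 21143 in CD14hi moDC, against 12363, 8692 and 9879 in CD14lo cDC and 4139, 5013 and 3908 in Ly6Chi moDC. CD103+ cDC and CD14hi moDC overlapped, CD14lo cDC came just below, and Ly6Chi moDC had the least. Ccl5 was not separated with median centring. Tnfsf13b encodes BAFF, a survival factor for B cells, and was highest in CD14hi moDC. It had 496, 387 and 749 in CD103+ cDC and 1201, 984 and 740 in CD14hi moDC, against 153, 161 and 154 in CD14lo cDC and 198, 222 and 220 in Ly6Chi moDC (log2 difference 1.71 ± 0.15, limma adjusted p = 9.2e-08). All 6 arrays of the first side stood clear of the others, and the difference was 3.27-fold, although its other probe set, with a log2 difference of 1.12, was not separated. Il15, a cytokine for natural killer and memory T cells, was 1.94-fold higher and was not separated with median centring. Tnfsf14, a ligand of the tumour necrosis factor family also called LIGHT, was 2.67-fold lower. Among 20 tested cytokine genes 5 were higher and 8 lower (17.0% and 15.9% of all genes were).

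Immediate early genes respond within minutes to stimulation or handling of cells. Of 25 tested, 7 were higher and 5 lower (17.0% and 15.9% of all genes were), so the list did not move as one. The 3 separated ones were higher (1.58% of all genes tested were separated higher). Egr1 had signals of 12536, 9394 and 12818 in CD103+ cDC and 10314, 11137 and 12413 in CD14hi moDC, against 6272, 7541 and 6731 in CD14lo cDC and 4187, 4756 and 4717 in Ly6Chi moDC. The populations of the first side overlapped, and the difference was 2.03-fold. Klf6 and Ier5 had log2 differences of 0.62 ± 0.08 and 0.42 ± 0.08 (limma adjusted p = 4.9e-06 and 0.00033), and Ier5 was not separated with either other scaling. The moDC step of Ier5 was not called (limma adjusted p = 0.14). Cell cycle genes were called higher for 19 of 31 and lower for 2 (17.0% and 15.9% of all genes were). Their median was 0.63, yet none was separated. Ccna2, a cyclin of dividing cells, had means of 952 ± 174 in CD103+ cDC and 309.8 ± 76.4 in CD14hi moDC, against 281 ± 35 in CD14lo cDC and 80.4 ± 20.2 in Ly6Chi moDC. Its CD14hi moDC and CD14lo cDC arrays overlapped.

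**Figure D2:**
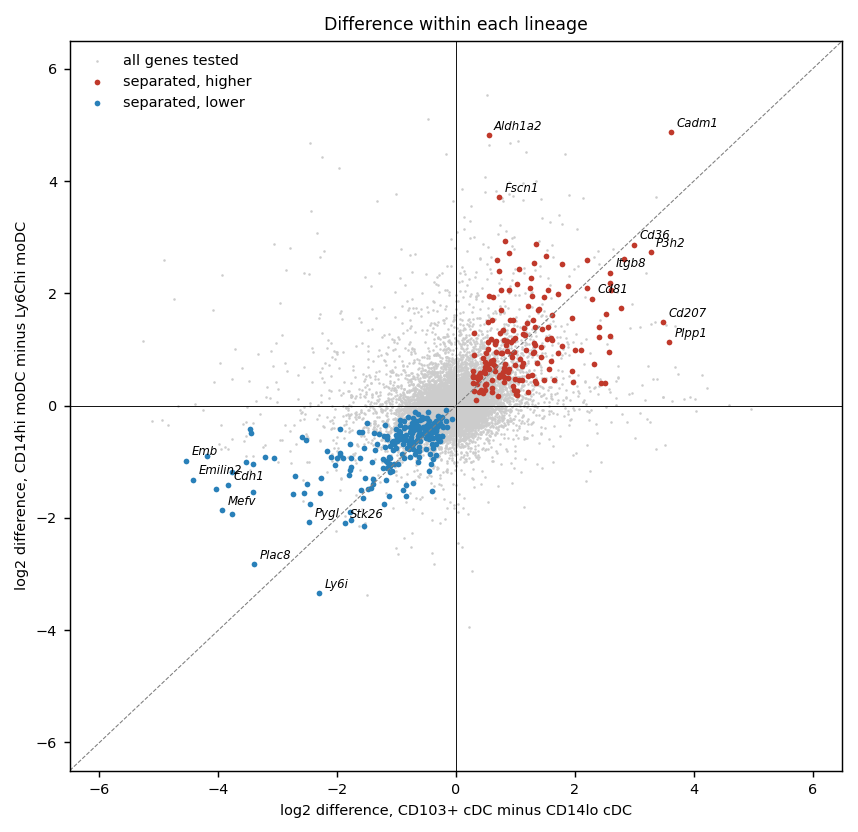
Each point is a gene: the horizontal axis is the log2 difference of CD103+ cDC minus CD14lo cDC, the vertical axis that of CD14hi moDC minus Ly6Chi moDC, with separated higher genes in red, separated lower genes in blue and all genes tested in grey; the dashed line marks equal steps. Cd36 lies near the line at the upper right and Cadm1 above it, Plac8 lies near it at the lower left, while Aldh1a2 and Fscn1 lie close to the vertical axis and Emb and Emilin2 close to the horizontal one.

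On the lower side, Plac8 led. It encodes a small cysteine-rich protein abundant in monocytes and neutrophils, and had signals of 1001, 625 and 581 in CD103+ cDC and 1227, 919 and 2686 in CD14hi moDC, against 6718, 8153 and 9320 in CD14lo cDC and 11074, 12275 and 8778 in Ly6Chi moDC. Within each side the populations overlapped, and the gap between the sides was the widest of any lower gene. The difference was 8.64-fold (log2 difference -3.11 ± 0.20, limma adjusted p = 1.2e-09). Among 16 tested genes of inflammatory monocytes, 15 were lower (15.9% of all genes tested were), with a median of -1.40. Of these genes 5 were separated lower, where 2.14% of all genes were. In the cDC step 10 of these genes were lower (15.3% of all genes tested were) and in the moDC step 12 (6.82% were). Genes of this list, though named for monocytes, thus also parted the conventional populations. Of 21 tested genes of a monocyte and macrophage core list, 16 were lower in the cDC step. In the moDC step 1 of the 21 was lower (6.82% of all genes were) and 3 were higher (11.4% were), and none was separated.

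Ms4a4c, a membrane protein of the Ms4a family, had signals of 1003, 1004 and 852 in CD103+ cDC and 3406, 2435 and 2823 in CD14hi moDC, against 4980, 6293 and 5670 in CD14lo cDC and 7706, 7558 and 7710 in Ly6Chi moDC. The populations followed each other without overlap in that order. Ace, the angiotensin-converting enzyme, had a mean of 109 ± 40 in CD103+ cDC and 162 ± 13 in CD14hi moDC, against 974 ± 97 in CD14lo cDC and 454 ± 19 in Ly6Chi moDC, a 3.95-fold difference. Its other probe set was separated the same way. Sorl1, a sorting receptor of endosomes, was 2.76-fold lower, and Treml4 was the fifth separated gene of the inflammatory monocyte list. Ly6i, a surface protein of the Ly6 family that Ly6C also belongs to, had 67.5, 52.1 and 26.2 in CD103+ cDC and 97.1, 63.4 and 141 in CD14hi moDC, against 406, 333 and 584 in CD14lo cDC and 1493, 1534 and 1295 in Ly6Chi moDC. It was low on the whole of the first side and highest in Ly6Chi moDC, and differed by 7.07-fold. Genes of the Ms4a, Ly6 and Sirpb1 families have close relatives, and a probe set may take up more than 1 of them, so these names are uncertain.

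Interferon-stimulated genes were lower in CD103+ cDC and CD14hi moDC: 20 of 25 tested were lower and 1 higher (15.9% and 17.0% of all genes were), with a median of -0.59. In the cDC step 12 were lower (15.3% of all genes were) and 1 higher, and in the moDC step 18 were lower (6.82% were). Ifi47, a GTPase induced by interferon-gamma, had signals of 815, 719 and 762 in CD103+ cDC and 1393, 1326 and 1225 in CD14hi moDC, against 2162, 2255 and 2547 in CD14lo cDC and 3140, 3245 and 3524 in Ly6Chi moDC. Here too the order of the populations was the same on every array, and the steps were of like size, 2.91-fold and 2.46-fold (difference of the log2 steps -0.24 ± 0.19, limma adjusted p = 0.45). Ifit3, an antiviral protein, was 2.12-fold lower, Isg20, a nuclease that degrades viral RNA, was 2.63-fold lower, and Irgm1, a GTPase acting against bacteria inside cells, was 1.66-fold lower in the crossing comparison. The cDC step of Irgm1 was not called (limma adjusted p = 0.086), and its crossing call was lost with the bioB covariate (adjusted p = 0.13).

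The promoters of separated genes were searched for 2 short patterns in the 250 bases before the start, as RefSeq gives it on mouse build GRCm38.p6. The first, searched on either strand, is the core of the element through which interferon signalling acts, in which 2 short runs of a G and then A bases are separated by 2 bases of any kind, and the second, TGANTCA, which reads the same on both strands, is that of AP-1, the factor built from Fos and Jun proteins. Stretches are shown for Ifit3, its neighbour Ifit1bl1 and Irgm1, which were separated lower, and for Tnfsf13b, which was separated higher and holds the same pattern; they run on the strand of the gene, with the matches in capitals (a match on the other strand reads as its reverse complement, and the capitals of Irgm1 join overlapping matches). The stretch of Cd207 shows a TGANTCA match in capitals. The positions are chr19:34583333-34583476 on the plus strand for Ifit3, chr19:34602003-34602112 on the minus strand for Ifit1bl1, chr11:48871421-48871490 on the minus strand for Irgm1, chr8:10006577-10006632 on the plus strand for Tnfsf13b and chr6:83677858-83677904 on the minus strand for Cd207.
Ifit3: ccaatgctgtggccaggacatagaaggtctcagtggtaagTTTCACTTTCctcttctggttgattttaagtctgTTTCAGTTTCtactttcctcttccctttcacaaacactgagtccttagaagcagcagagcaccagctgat
Ifit1bl1: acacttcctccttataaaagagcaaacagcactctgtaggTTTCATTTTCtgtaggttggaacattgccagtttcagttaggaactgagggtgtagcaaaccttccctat
Irgm1: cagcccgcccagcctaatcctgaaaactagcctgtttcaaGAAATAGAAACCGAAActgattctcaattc
Tnfsf13b: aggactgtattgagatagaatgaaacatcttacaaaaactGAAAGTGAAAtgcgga
Cd207: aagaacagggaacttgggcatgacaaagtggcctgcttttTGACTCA
The interferon pattern was present in 13 of 195 separated lower genes with a promoter in the table (6.67%) and in 6 of 133 separated higher genes (4.51%). It was present in 299 of 8933 tested genes (3.35%) and in 978 of 32851 promoters of the whole table (2.98%). The AP-1 pattern was present in 13 of 133 separated higher genes (9.77%), 13 of 195 separated lower genes (6.67%), 481 of 8933 tested genes (5.38%) and 2217 of all 32851 promoters (6.75%). These shares describe letters in a window and not sites of binding.

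Of 23 pattern recognition genes tested, 4 were higher and 14 lower (17.0% and 15.9% of all genes tested were), with a median of -0.48. Of the 23, 1 was separated higher and 3 lower, where 1.58% and 2.14% of all genes tested were. Ddx58, which encodes the RNA sensor RIG-I, had signals of 385, 428 and 352 in CD103+ cDC and 1088, 1078 and 919 in CD14hi moDC, against 1399, 1487 and 1499 in CD14lo cDC and 2523, 1992 and 2561 in Ly6Chi moDC. The 4 populations did not overlap, and the sides differed by 2.77-fold (log2 difference -1.47 ± 0.11, limma adjusted p = 5.4e-09). Dhx58, a relative of RIG-I, was 1.76-fold lower, and Sting1, which relays signals from cytosolic DNA, was 1.33-fold lower, a call lost with the bioB covariate (adjusted p = 0.068). Tlr12, which in mouse senses profilin of parasites, went the other way, with 453, 642 and 293 in CD103+ cDC and 728, 446 and 474 in CD14hi moDC, against 137, 188 and 168 in CD14lo cDC and 88.4, 124 and 157 in Ly6Chi moDC. Its sides did not overlap, and it was 2.81-fold higher.

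Of 20 C-type lectins tested, 15 were lower and 2 higher in the cDC step, where 15.3% and 13.4% of all genes were. In the moDC step 4 were lower and 8 higher, where 6.82% and 11.4% of all genes were. In the crossing comparison 13 were lower and 3 higher, where 15.9% and 17.0% of all genes were. The difference between these counts was not tested. Clec7a, the fungal beta-glucan receptor dectin, was lower on both steps and separated, with means of 1695 ± 295 in CD103+ cDC and 4283 ± 660 in CD14hi moDC, against 5249 ± 263 in CD14lo cDC and 8156 ± 604 in Ly6Chi moDC. Among 28 cytokine receptor genes tested, 2 were separated lower, where 2.14% of all genes tested were. Of the 28, 6 were higher and 11 lower (17.0% and 15.9% of all genes were). Il17ra, a receptor subunit for interleukin 17, was 2.97-fold lower, but its moDC step was not called (adjusted p = 0.085). Ifngr1, a chain of the interferon-gamma receptor, was 1.63-fold lower (log2 difference -0.71 ± 0.12, limma adjusted p = 0.00014).

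**Figure D3:**
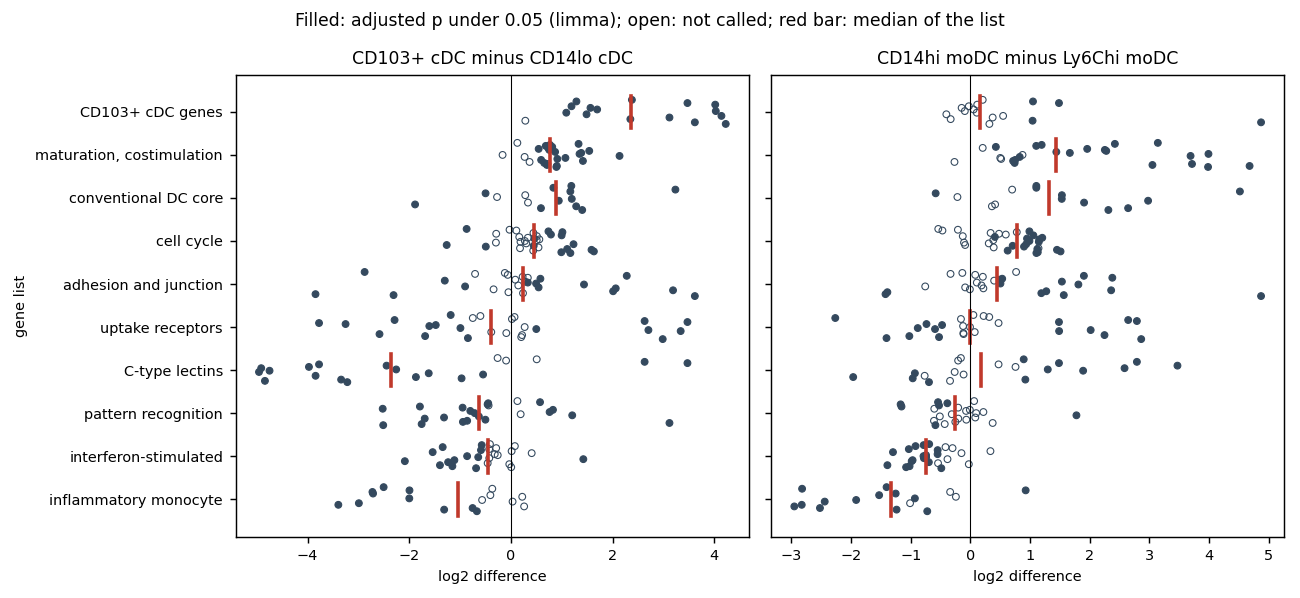
Log2 differences of the tested members of 10 gene lists, CD103+ cDC minus CD14lo cDC on the left and CD14hi moDC minus Ly6Chi moDC on the right; filled points were called (limma adjusted p under 0.05), open points were not, and red bars are medians of the list. The maturation list lies to the right and the inflammatory monocyte list to the left in both panels, whereas the CD103+ cDC list has a median of 2.37 on the left and 0.16 on the right.

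Several other genes with large lower differences were dim in CD103+ cDC and differed less between the moDC. Mefv, which encodes the inflammasome sensor pyrin, had signals of 55.3, 93.5 and 98.9 in CD103+ cDC and 371, 349 and 706 in CD14hi moDC, against 1761, 1960 and 2184 in CD14lo cDC and 1743, 1313 and 2435 in Ly6Chi moDC. CD14lo cDC and Ly6Chi moDC overlapped and stood above CD14hi moDC, and CD103+ cDC were lowest. Emilin2, a matrix glycoprotein, had means of 90.0 ± 22.0 in CD103+ cDC and 1685 ± 282 in CD14hi moDC, against 2945 ± 472 in CD14lo cDC and 4276 ± 689 in Ly6Chi moDC. Emb, a membrane partner of monocarboxylate transporters, had 43.6 ± 14.6 in CD103+ cDC and 1440 ± 274 in CD14hi moDC, against 2121 ± 289 in CD14lo cDC and 2870 ± 237 in Ly6Chi moDC. For Emb the cDC step was 23.2-fold and the moDC step 1.98-fold. Adgre4, an adhesion receptor related to F4/80, Cd300lf, a receptor for lipids of dying cells, Sirpb1a, a member of the signal regulatory protein family, and Tgm2, which crosslinks proteins, likewise had CD103+ cDC lowest and CD14hi moDC next, with crossing differences of 5.85-fold, 5.58-fold, 7.22-fold and 4.83-fold. All 4 other probe sets of Tgm2 were separated as well.

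Cd7, a surface protein of the immunoglobulin superfamily, was mostly a gene of CD14lo cDC. Its signals were 79.0, 43.9 and 54.3 in CD103+ cDC and 36.5, 8.10 and 14.2 in CD14hi moDC, against 1299, 2422 and 1637 in CD14lo cDC and 204, 159 and 82.3 in Ly6Chi moDC. Only CD14lo cDC were bright, and the lowest Ly6Chi moDC array was just above the highest CD103+ cDC array. Bex6 was likewise highest in CD14lo cDC and next in Ly6Chi moDC, but was lowest in CD103+ cDC, where Cd7 was lowest in CD14hi moDC. The means of Bex6 were 11.2 ± 10.5 in CD103+ cDC and 65.9 ± 41.1 in CD14hi moDC, against 790 ± 171 in CD14lo cDC and 204 ± 9.8 in Ly6Chi moDC. Pygl, an enzyme that releases glucose from glycogen, was more even between the lineages, 5.53-fold lower in the cDC step and 4.21-fold lower in the moDC step. Stk26, a kinase linked to cell polarity, was 3.67-fold and 4.26-fold lower in the same steps. It was dim in CD103+ cDC (36.9 ± 45.5) and CD14hi moDC (43.6 ± 19.8), and its other probe set was not separated. Pdk1, which restrains the entry of pyruvate into mitochondria, was the 1 separated gene among 19 tested of glycolysis (2.14% of all genes were separated lower). Of these 19 genes 8 were lower and 2 higher (15.9% and 17.0% of all genes were). The log2 difference of Pdk1 was -0.91 ± 0.15 (limma adjusted p = 0.00012, and 0.10 with the bioB covariate). Runx3, a transcription factor of DC and T cells, was lower, with a log2 difference of -0.54 ± 0.10 (limma adjusted p = 0.0004). Of the 14 conventional DC core genes tested, however, 11 were higher and 2 lower (17.0% and 15.9% of all genes were).

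**Figure D4:**
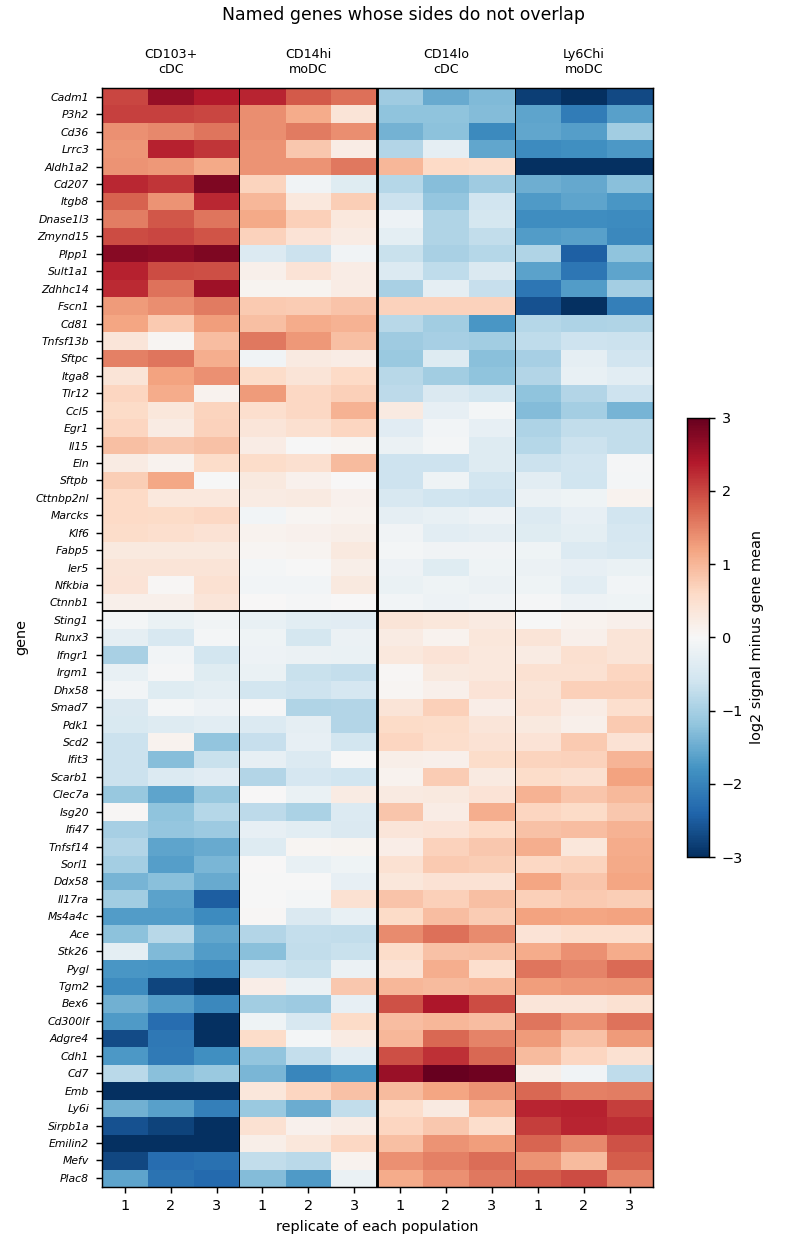
Log2 signal minus the gene's mean over 12 arrays for the named separated genes, 1 gene a row and 1 array a column, with higher genes above the horizontal line and lower genes below it; the thick vertical line divides CD103+ cDC and CD14hi moDC from CD14lo cDC and Ly6Chi moDC. Red is above and blue below the gene's mean, the scale ends at 3 in either direction, and the contrast between the sides is strong for Cadm1 and Plac8 and faint for Ctnnb1 and Sting1. Some rows keep their colour across the thick line, such as Aldh1a2 and Fscn1 (red in CD14lo cDC too) and Emb and Emilin2 (red in CD14hi moDC too).

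The order of the populations within the sides was counted for separated genes only, with no like count over all genes tested. Among the 173 higher genes, the mean of CD103+ cDC exceeded that of CD14hi moDC in 129, and Ly6Chi moDC were lowest in 122 and CD14lo cDC in 51. Among the 234 lower genes, CD103+ cDC were lowest in 185 and CD14hi moDC in 49, and Ly6Chi moDC were highest in 142 and CD14lo cDC in 92. In either direction CD103+ cDC were thus the outer population of their side in most genes, and so, counted separately, were Ly6Chi moDC of theirs. The sequence CD103+ cDC, CD14hi moDC, CD14lo cDC, Ly6Chi moDC, from highest to lowest, held for 94 of the higher genes, and the same sequence from lowest to highest for 120 of the lower genes.

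In the cDC step 3141 of all genes tested were called (28.7%) and in the moDC step 1993 (18.2%). Both steps called the same direction for 522 genes higher (4.78%) and 340 lower (3.11%), 7.89% together, whereas 183 genes were called in opposite directions (1.67%). Among separated genes both steps were called for 116 of the 173 higher and 130 of the 234 lower. When each of the 4 pairs of populations across the sides had to be called in the same direction, 79 genes higher (0.723%) and 91 lower (0.833%) remained, and 75 and 83 of them were separated. Without CD14lo cDC replicate 3 this count of 170 in both directions (1.56%) was 111, and with the bioB covariate it was 106, while the cDC step then called 1476 genes.

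The sizes of both steps were compared by their difference, which was called for 1617 of all genes tested (14.8%), in 4.99% with the cDC step the more positive and in 9.81% with the moDC step. Among separated genes it was called for 41 of the 173 higher and 40 of the 234 lower. In the higher ones the cDC step was the larger in 20 and the moDC step in 21. In the lower ones the cDC step was the larger in 37, among them Emb, Emilin2 and Adgre4, and the moDC step in 3, among them Ly6i and Dhx58. For the other 326 separated genes the difference was not called, which does not show that the steps were alike.

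Other probe sets of the same genes did not enter the separation rule, though the brightest was picked from among them to stand for its gene. They come from the same arrays and RNA, so they are not independent of it. Of the separated genes 195 had further probe sets above the signal filter, 358 in all, and 341 of these differed in the same direction as the one that stood for the gene. Full separation in the same direction was found for 121 (33.8%) and in the opposite direction for 0, against 169 of 9851 further probe sets of the genes that were not separated (1.72%). The share was 38.3% for separated higher genes and 29.2% for separated lower ones. Named genes for which no other probe set was separated included Stk26, Dhx58, Pdk1, Runx3, Smad7, Sftpc, Ier5 and Plpp1.

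Some separated genes lay side by side in the genome. Among the genes tested, in RefSeq order on GRCm38.p6, 23 adjacent pairs were separated in the same direction, 10 higher and 13 lower, and 4 adjacent pairs in opposite directions. The number of such pairs under random placing was not worked out, so clustering in the genome was not tested. The runs of over 2 genes, named after their values were seen, were Rab23, Zfp451, Bend6 and Dst (higher), R74862, Cd81 and Tssc4 (higher), Trem3, Treml4, Treml2 and B430306N03Rik (lower) and Ms4a4c, Ms4a4b and Ms4a6c (lower). The Trem and Ms4a runs are gene families, for which shared sequence can also give shared signal, and Ifit3 with Ifit1bl1 was a further pair of relatives.

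In a few lists of other cell types, members were called in the crossing comparison. Across all genes tested 17.0% were higher and 15.9% lower, and 1.58% were separated higher and 2.14% separated lower. None of the summed signals given here divided the sides without overlap. Of 10 tested genes of lung epithelium 5 were higher and 1 lower, and the summed signal of the list was 7368 to 12489 in CD103+ cDC and 3331 to 4532 in CD14hi moDC, against 4627 to 7749 in CD14lo cDC and 3184 to 4201 in Ly6Chi moDC. Sftpc, the gene of a surfactant protein of alveolar epithelium, was separated, with 988, 1063 and 733 in CD103+ cDC and 294, 393 and 378 in CD14hi moDC, against 120, 231 and 103 in CD14lo cDC and 134, 252 and 198 in Ly6Chi moDC. Sftpb was separated too (log2 difference 0.76 ± 0.19, limma adjusted p = 0.0046). With median centring neither surfactant gene was separated, nor was Eln, described next. The lower gene of that list was Cdh1, described above, which stands in the adhesion list as well. Of 8 tested fibroblast genes 2 were higher, and Eln, which encodes elastin, was separated, with means of 245 ± 47 in CD103+ cDC and 329.2 ± 68.4 in CD14hi moDC, against 114 ± 15 in CD14lo cDC and 132 ± 44 in Ly6Chi moDC. The part of RNA from other cell types in the separated genes was not tested. Of 5 tested neutrophil genes 2 were lower, and the summed signal of that list was 241 to 1901 in CD103+ cDC and 1077 to 2119 in CD14hi moDC, against 907 to 1274 in CD14lo cDC and 4063 to 4373 in Ly6Chi moDC. Of 5 tested endothelial genes 1 was higher and 3 lower, with a median of -0.72, and the summed signal was 807 to 962 in CD103+ cDC and 514 to 895 in CD14hi moDC, against 955 to 1428 in CD14lo cDC and 695 to 1337 in Ly6Chi moDC. Both tested T cell genes were higher, with sums of 535 to 850 in CD103+ cDC and 711 to 902 in CD14hi moDC, against 304 to 601 in CD14lo cDC and 39.1 to 68.2 in Ly6Chi moDC. In the cDC step 1 of them was higher and 1 lower. Another 6 T cell genes, among them Cd3d and Cd3e, missed the signal filter, with population means of 76.6 at most. So did 5 neutrophil genes (77.5 at most), 5 endothelial genes (46.1), 3 epithelial genes (113) and 2 fibroblast genes (93.1). Of 12 alveolar macrophage genes 2 were higher and 3 lower, and of 9 plasmacytoid DC genes 3 were higher and 2 lower. B cell genes were higher for 1 and lower for 1 of 6, and 1 of 2 platelet and erythroid genes was higher. No endothelial, T cell, macrophage, plasmacytoid DC, B cell, platelet or neutrophil gene of these lists was separated.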

How the data were processed

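Gene expression was measured on 12 Affymetrix mouse arrays, 3 for each of 4 sorted lung DC populations. The authors deposited linear intensity values made with MAS5, per the submitters' processing notes, and every array had a 2% trimmed mean of 500.003. The sources used here do not give the MAS5 version or detection calls, and a filter on signal took the place of such calls.

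Of 45101 probe sets 64 were controls. In the platform annotation 34945 others had 1 symbol and were used, while 932 with several and 9160 without one were not; no symbol needed an update through RefSeq. Probe sets above the median of their array in at least 3 of 12 arrays were kept, and the kept one with the highest mean stood for its gene, which left 10929 of 18193 genes, 5645 of them with several kept probe sets. Signals were raised by 50.0003, 10% of the trimmed mean, and put on the log2 scale.

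A mean per population was fitted with limma 3.58.1 in R 4.3.3 (intensity trend, 8 residual degrees of freedom, two-sided tests), and p values were adjusted over all genes tested. The tests were tried on simulated data first. Replicates are numbered biological replicates, each from 20 mice, and no 2 arrays held identical values. Correlations of the deviations of arrays with the same number ran from -0.11 to 0.24 and not every one was above 0.1, so the numbers were not used as pairs.

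The members and all 45 gene lists were chosen with earlier results of these data known. Named genes were the 12 called separated genes with the largest difference in each direction, the 6 most balanced between both steps, the markers, up to 4 separated members of a list (or 2 called ones where none was separated) and those at the edge of separation. Lists are described by counts and medians, with no test. Alternatives covered normalization, pseudocount, filter, choice of probe set, variance model, a 2-fold requirement, control covariates and leaving out arrays. The number of arrays limits the precision.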

Additional observations from a re-analysis of the deposited data

Results flagged for a closer look

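For the following genes the change from CD14lo cDC to CD103+ cDC and that from Ly6Chi moDC to CD14hi moDC differed by a test of the difference itself in limma. Each value is the cDC step minus the moDC step on the log2 scale. All are given as values without an explanation.

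Among genes higher in CD103+ cDC and CD14hi moDC, the moDC step was the larger for Aldh1a2 (-4.27), Fscn1 (-2.997), Ccl5 (-1.41) and Cadm1 (-1.25). The cDC step was the larger for Plpp1 (2.45), Cd207 (1.99), Sftpc (1.57) and Cttnbp2nl (0.70), a gene of the cytoskeleton list that was separated by a margin of 0.01.

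Among lower genes a negative value means that the cDC step was the larger fall. This was so for Emb (-3.55), Adgre4 (-3.29), Emilin2 (-3.10), Bex6 (-2.59), Cd7 (-2.56), Tgm2 (-2.52), Cdh1 (-2.42) and Mefv (-2.08). Smaller differences of the same sign were found for Il17ra (-1.91), Cd300lf (-1.88), Sirpb1a (-1.85), Ace (-1.46), Ms4a4c (-1.10), Sorl1 (-1.07) and Clec7a (-0.69). The moDC step was the larger fall for Ly6i (1.03) and Dhx58 (0.71).

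Among genes that were not separated, the steps differed for Xcr1 (3.91), Itgae (3.59), Ccr7 (-3.09), Itgam (-2.99) and Ybx3 (-0.90). Itgae and Itgam encode proteins on which the populations were sorted.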

How the results depend on the processing

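No named gene reversed its direction under any alternative: 2678 values kept their side of the threshold, 82 fell below it and 7 passed it. Of the 24 genes with the largest differences 23 were separated under all 3 scalings, the exception being Plpp1. Median centring gave 94 separated higher and 413 separated lower genes, and 577 lower in both lineages. The stricter signal filter, which tests fewer genes, gave 1203 higher in the crossing comparison and 106 separated higher. Testing every probe set, which raises the number of features, gave 3265 higher and 2831 lower, 324 and 373 separated, 854 and 517 called the same way in both lineages, 267 in all 4 pairs, 5235 in the cDC step, 3393 in the moDC step and 2668 for the difference of the steps. A 2-fold requirement left 461 and 288, 89 and 78, 178 and 85, 55, 1181 and 845 for the same measures up to the moDC step. With the bioB covariate they were 959 and 684 called, 299 and 174 in both lineages, 106 in all 4 pairs and 1476 in the cDC step; the cause was not tested. Leaving out CD103+ cDC replicates 1 and 3, which had high Gapdh ratios, gave 266 separated higher, 344 higher in both lineages and 1733 in the cDC step.

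Leaving out each array in turn gave 1620 to 1834 higher and 1519 to 1755 lower genes, 188 to 277 and 258 to 317 separated, 431 to 497 and 246 to 341 in both lineages and 111 (without CD14lo cDC replicate 3) to 166 in all 4 pairs. The cDC step ranged from 2513 to 3141, the moDC step from 1507 to 2087 and the difference of the steps from 1352 to 1785. With replicate number as a block 3720 genes were called, against 3599 without the pairing; 10 of 12 arrays correlated best with their own number, a hint from the data and not the design, and 8 of 18 pairs had a correlation above 0.1. Among named separated genes the calls of Ctnnb1, Nfkbia and Phf5a were lost under several alternatives.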
